A study of Homo sapiens with 10 samples.

Results

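The genes described here encode the heterogeneous nuclear ribonucleoproteins (HNRNP) and the serine/arginine-rich (SR) splicing proteins, together with SON, SRRM1 and SRRM2, large SR-related proteins of the nuclear speckle. Members were 34 listed gene symbols, and the platform annotation gave 88 probe sets that name a member and no other gene, of 22283 probe sets on the array. These stood for 31 of the 11963 genes read in this way: 17 HNRNP genes with 47 probe sets, 11 SR genes with 32 and the 3 SR-related genes with 9. The other 3, HNRNPH2, SRSF2 and SRSF9, were read only by probe sets that name another gene too. Of the 88 probe sets, 67 passed the filter on low values and were tested, at least 1 for each of the 31 genes, and 21 were too dim to test.

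The study treated MOLT-4, a line grown out of a human acute lymphoblastic leukaemia of T cells, with MABL, an antibody against CD47, and measured RNA on Affymetrix oligonucleotide arrays. The 10 arrays fall into 5 times of treatment, 0 h, 0.5 h, 1 h, 3 h and 6 h, with 2 arrays each. Every sample, 0 h included, is labelled as carrying 10 ug/mL MABL and 50 ug/mL GAM, an abbreviation the labels do not spell out. No untreated cells kept for the same times were analysed here, so antibody, GAM, time in culture and handling cannot be told apart. All cells are of 1 line, and no label says whether the 2 arrays of a time stand for separate cultures, so the p-values speak of the spread over these arrays alone, and that spread may be technical.

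HNRNP proteins coat nascent transcripts, and many of them hold back splice site use, guide export or set the stability of mRNA. SR proteins carry RNA recognition motifs and a domain rich in arginine and serine repeats, bind exonic enhancers and help the spliceosome to define exons. SR protein genes and several HNRNP genes make alternative transcripts with a premature stop through which they limit their own levels. Kinases of the CLK and SRPK families phosphorylate the SR domain, and transportins carry the proteins into the nucleus.

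Levels are square roots of the deposited scores read as log2, an unstated scale on which every size below depends, and differences are log2 changes, later time minus 0 h. T-lineage markers matched the line's label: 12 of 16 measured averaged log2 5 or more, against 0 of 4 of the B lineage, 0 of 5 myeloid and 0 of 2 erythroid markers, while 1 of 4 markers of stroma and epithelium did so too (COL1A1, at 5.24). Replicates correlated at r = 0.991 to 0.994 over all tested probe sets. The arrays differed with time in ways that touch all results. The mean of 3 probe sets for 18S ribosomal RNA stood above its 0 h level by 1.44, 1.66, 2.17 and 2.58 at 0.5 h, 1 h, 3 h and 6 h, the mean of 9 spike-in probe sets by 0.25, 0.25, 0.75 and 0.65, and the tested probe sets' median was shifted by -0.13, -0.29, -0.31 and -0.25. In a bulk sample, fewer cells and less RNA per cell cannot be told apart.

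Members were lower at every later time, and hardly any was higher. At 0.5 h, 24 of the 67 tested member probe sets fell, against 15.1% of all 4276 tested, and none rose (background 1.92%, 3 members higher at an unadjusted p under 0.05). At 1 h 37 fell (background 24.2%) and 1 rose, a probe set of SRSF6 (background 4.14%). At 3 h 42 fell (26.4%) and 0 rose (2.53%), and at 6 h 40 fell (21.6%) and 0 rose (4.07%), with 0 higher at an unadjusted p under 0.05 at either time. The median change of the members was -0.39, -0.60, -0.60 and -0.62 at 0.5 h, 1 h, 3 h and 6 h, while that of all tested probe sets was 0.01, -0.03, -0.15 and -0.14. Left out of the counts, by a rule added after the data were seen, were next the 91 probe sets that reached the filter level of log2 5 at 1 time only, among them 2 of SON and 1 of SRSF8 that did so at 0 h and so had to differ. Of the other 64 members 21, 34, 39 and 37 fell at 0.5 h, 1 h, 3 h and 6 h, against 14.1%, 23.3%, 25.5% and 21.0% of the other 4185 probe sets. These counts carry no test of the list as a whole, the 4 comparisons share the 0 h arrays, and the adjusted p-values are limma's.

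At least 1 tested probe set was called lower in 15, 20, 23 and 22 of the 31 genes at 0.5 h, 1 h, 3 h and 6 h. Every tested probe set was called lower in 8, 14, 17 and 14 genes. Both counts include SON, which had to differ. The same counts over all genes were not made, so neither count is read as a result about the members. An F test over all times called 47 of the 67 (background 39.6%). Only HNRNPL, which binds CA repeats, HNRNPUL1, SRRM2 and SRSF4 had no call against 0 h at any time among the tested probe sets. HNRNPL 35201_at, for example, read 10.16 and 10.21 at 0 h, 10.47 and 10.50 at 0.5 h, 10.32 and 10.28 at 1 h, 10.26 and 10.14 at 3 h and 10.29 and 10.09 at 6 h.

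With all arrays brought to the same median the members fell in 21, 28, 29 and 30 probe sets at 0.5 h, 1 h, 3 h and 6 h, and rose in 2, 6, 1 and 0. At 0.5 h 15.3% of all tested probe sets then fell and 6.9% rose, and at 6 h 14.1% fell and 14.3% rose. The background turned in between: at 1 h 19.5% of all tested probe sets fell and 32.5% rose, and at 3 h 17.8% fell and 23.1% rose. The 6 that rose at 1 h on that scale were SRSF5 with 2 probe sets, HNRNPL with 2, HNRNPF and SRSF6. Single arrays weighed on the counts of members and of all tested probe sets, with the lone array of a time assumed to vary like the others. In each of these runs fewer of all tested probe sets were called lower at the times given than with all 10 arrays. Without the first 0 h array, 4, 21, 24 and 19 member probe sets fell at 0.5 h, 1 h, 3 h and 6 h (background 2.83%, 14.2%, 9.42% and 8.16%). Fewer members than with all 10 arrays also fell at 0.5 h without either 0.5 h array. So it was at 1 h without the second 1 h array, at 3 h without the second 3 h array and at 6 h without the first 6 h array. With the 18S level as a covariate the lower calls were 0, 4, 0 and 0 (background 0.187% at 0.5 h and 3.25% at 1 h). With the spike-in level they were 9, 24, 0 and 0 (background 5.24% at 0.5 h and 16.6% at 1 h). At 3 h and 6 h neither covariate left any lower call among all tested probe sets, and the part of these levels in the changes was not tested.

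**Figure D1:**
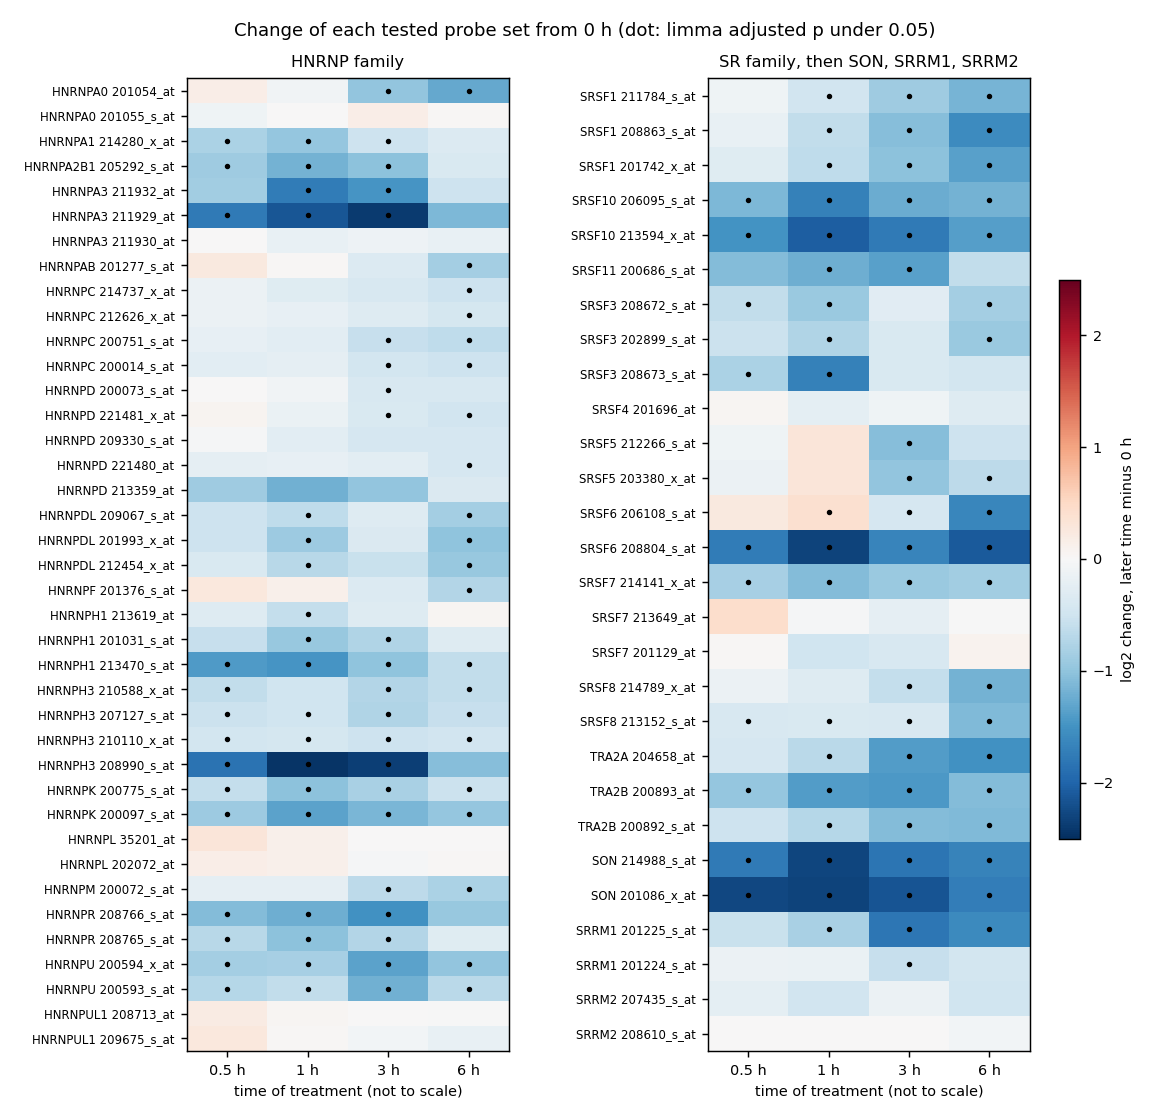
Change of each tested member probe set from 0 h at 4 later times, one row per probe set, on a colour scale of log2 change (later time minus 0 h, mean of 2 arrays each), with a dot where limma's adjusted p is under 0.05. Blue dominates in both families; the deepest blue lies in HNRNPH3, HNRNPA3, SRSF6 and SON, and HNRNPL, HNRNPUL1, SRSF4 and SRRM2 carry no dot.

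The families were set side by side without a test of their difference. In the HNRNP family 14, 19, 22 and 21 of 39 tested probe sets fell at 0.5 h, 1 h, 3 h and 6 h, with median changes of -0.38, -0.49, -0.52 and -0.52. In the SR family 8, 15, 16 and 16 of 22 fell, with medians of -0.41, -0.65, -0.96 and -1.09. In the 3 SR-related genes 2, 3, 4 and 3 of 6 fell, of which 2 at each time were the SON probe sets that had to differ, and 0, 1, 2 and 1 of the other 4 fell. Without the probe set of SRSF8 that had to differ, 7, 14, 15 and 15 of 21 SR probe sets fell. With equal array medians, 11, 14, 13 and 12 of the 39 HNRNP probe sets fell, and 8, 11, 13 and 15 of the 22 SR probe sets. At 0.5 h the families thus had nearly the same share of lower calls, and at 6 h the SR family had the larger share on either scale.

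**Figure D2:**
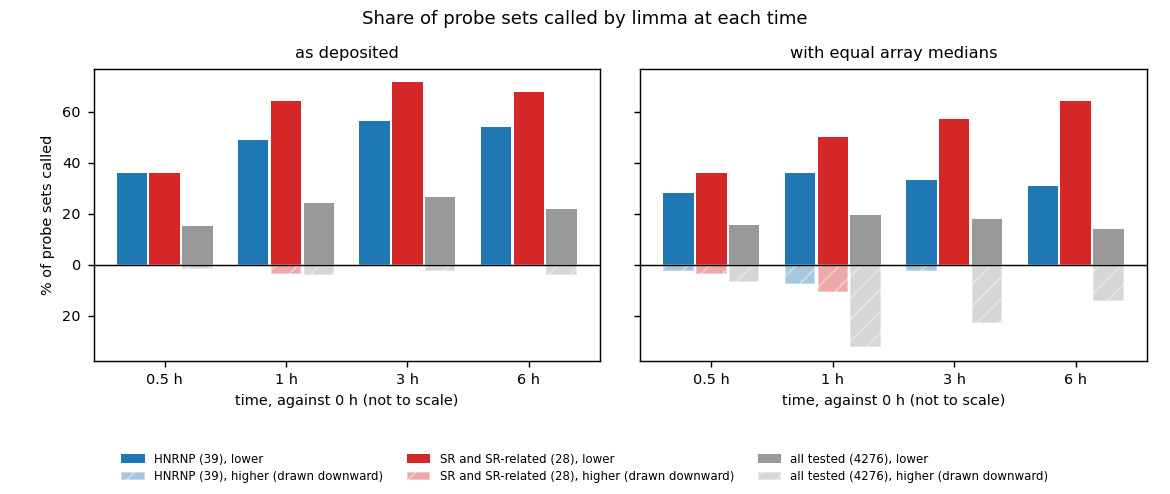
Percent of tested probe sets called lower (solid, upward) and higher (pale hatched, downward) against 0 h at each later time, for 39 HNRNP, 28 SR and SR-related, and all 4276 tested probe sets, from the values as deposited and with equal array medians. Lower calls are more frequent in both families than among all tested probe sets in each panel, while the higher calls of all probe sets grow with equal medians, to 32.5% at 1 h.

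To show what lies upstream of genes whose courses differ, 150 bases before the annotated start are given for HNRNPA0, low at 3 h and 6 h, SRSF3, lowest at 1 h on 2 of 3 probe sets, and SRSF6, whose probe sets changed unequally. These genes were taken among those described in detail because they have 1 listed start and no other annotated gene over the stretch. The sequences are RefSeq's on GRCh38.p14, at chr5:137754364-137754513 on the minus strand for HNRNPA0, chr6:36594212-36594361 on the plus strand for SRSF3 and chr20:43457746-43457895 on the plus strand for SRSF6. Capitals mark CCAAT or GGGCGG or TATAAA, on the gene strand or, as ATTGG and CCGCCC, on the other.
HNRNPA0: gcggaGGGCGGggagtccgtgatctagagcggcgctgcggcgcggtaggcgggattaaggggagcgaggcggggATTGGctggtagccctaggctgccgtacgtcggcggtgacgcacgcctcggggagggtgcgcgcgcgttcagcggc
SRSF3: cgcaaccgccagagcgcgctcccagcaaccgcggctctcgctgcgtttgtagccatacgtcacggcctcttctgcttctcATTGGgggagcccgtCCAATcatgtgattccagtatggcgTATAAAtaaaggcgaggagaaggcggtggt
SRSF6: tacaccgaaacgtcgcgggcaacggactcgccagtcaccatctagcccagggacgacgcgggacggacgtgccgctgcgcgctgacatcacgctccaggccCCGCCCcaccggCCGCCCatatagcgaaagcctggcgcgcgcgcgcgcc

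The stretch of SRSF3 holds CCAAT on each strand and TATAAA close to the start, that of HNRNPA0 holds GGGCGG and CCAAT, and that of SRSF6 holds GGGCGG on the other strand only. Over windows of 250 bases before to 50 after the start, searched on both strands with no overlap removed, CCAAT lay in 46.67% of 45 windows of 29 tested members, against 34.61% of 35116 windows of all genes. GGGCGG lay in 55.56% of the members' windows against 44.95% of all, CACGTG in 15.56% against 7.256%, CCGGAAG in 8.889% against 10.26% and TATAAA in 13.33% against 11.53%. Members' windows had a median GC content of 65%, against 58.67% for all windows, and a median of 29 CG dinucleotides against 14. The members' lowest values were those of SRSF8, whose 2 windows had 36% and 38% GC and 3 CG dinucleotides each, and the lowest of the HNRNP family were 49.33% and 10. A match says that these letters are in the window and no more.

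Among the HNRNP A and B proteins, which bind UAG-like motifs and often repress nearby exons, the deepest changes were on a probe set of HNRNPA3. HNRNPA3 211929_at read 6.69 and 6.82 at 0 h, 5.01 and 4.96 at 0.5 h, 4.66 and 4.57 at 1 h, 5.11 and 3.61 at 3 h and 5.36 and 5.90 at 6 h. Every later array lay below the 0 h arrays, and the 3 h arrays lay far apart. The change was -1.77 at 0.5 h (SE 0.409, adjusted p = 0.0221), -2.14 at 1 h (adjusted p = 0.00584), -2.40 at 3 h (adjusted p = 0.00508) and -1.13 at 6 h (adjusted p = 0.0777). The 0.5 h call was lost without any of the arrays it compares, with adjusted p-values of 0.0827 to 0.118. Means at 1 h and 3 h were under the filter level of log2 5, and with values floored there the changes were -1.76 and -1.70. Brighter probe sets that name HNRNPA3 and its pseudogene HNRNPA3P1 changed less: 211931_s_at was called at no time, with -0.05, -0.41, -0.41 and -0.21 at 0.5 h, 1 h, 3 h and 6 h (adjusted p = 0.129 to 0.904), and 211933_s_at had -0.75 at 1 h (adjusted p = 0.00559) and -0.57 at 3 h (adjusted p = 0.0195).

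HNRNPA2B1, whose product also sorts RNA for transport, was among the brightest members. It read 11.48 and 11.44 at 0 h, 10.63 and 10.52 at 0.5 h, 10.37 and 10.19 at 1 h, 10.70 and 10.15 at 3 h and 10.95 and 11.20 at 6 h. The arrays of 0.5 h to 3 h did not overlap those of 0 h, and those of 6 h came closest to them. The change was -0.88 at 0.5 h (SE 0.181, adjusted p = 0.0146), -1.18 at 1 h (adjusted p = 0.00226), -1.03 at 3 h (adjusted p = 0.00551) and -0.38 at 6 h (adjusted p = 0.157). At 0.5 h the call was lost without the first 0 h array (adjusted p = 0.0962), the second 0 h array (0.0526) or the second 0.5 h array (0.0996). Changes of HNRNPA2B1 and of other genes outside the rule for named genes are given after their values were seen. HNRNPA1, the best studied repressor of the group, had 1 tested probe set under its own name, which read 7.83 and 7.64 at 0 h, 6.89 and 6.67 at 1 h and 7.44 and 7.34 at 6 h and was called lower at 0.5 h, 1 h and 3 h. With equal array medians its 3 h change was not called (adjusted p = 0.261), and its 0.5 h call was lost without the first 0 h array (0.0804) or the first 0.5 h array (0.0515).

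HNRNPA0, which binds AU-rich elements, and HNRNPAB, a single-strand binding protein, followed another course. HNRNPA0 201054_at read 8.89 and 9.08 at 0 h, 9.17 and 9.12 at 0.5 h, 8.95 and 8.84 at 1 h, 7.92 and 8.07 at 3 h and 7.56 and 7.84 at 6 h. Arrays up to 1 h overlapped those of 0 h or lay just above, and those of 3 h and 6 h lay well below. Its change was -0.99 at 3 h (SE 0.129, adjusted p = 0.0025) and -1.29 at 6 h (adjusted p = 0.000867). HNRNPAB was called at 6 h and at no other time, lower at 10.23 and 9.92, against 11.09 and 10.75 at 0 h (change -0.85, adjusted p = 0.0106). That call was lost without the first 0 h array (adjusted p = 0.0781) or the second 6 h array (adjusted p = 0.0542).

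The HNRNP F and H proteins bind runs of G. HNRNPH3 208990_s_at read 7.10 and 7.05 at 0 h, 5.56 and 4.90 at 0.5 h, 4.81 and 4.44 at 1 h, 5.18 and 4.26 at 3 h and 5.69 and 6.35 at 6 h. All later arrays lay below 0 h, with the lowest at 1 h and 3 h. The change was -1.85 at 0.5 h (SE 0.349, adjusted p = 0.0108), -2.45 at 1 h and -2.36 at 3 h (adjusted p = 0.00337), and at 6 h it was -1.06 (adjusted p = 0.0582). Means at 1 h and 3 h, 4.62 and 4.72, were under the filter level of log2 5, so part of these changes lies below it. The 0.5 h call was lost without the first 0 h array (adjusted p = 0.0791) or the second 0.5 h array (adjusted p = 0.0868). The other 3 tested probe sets of HNRNPH3 fell by 0.44 to 0.76 where called, and their calls were lost with equal array medians except that of 207127_s_at at 3 h.

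HNRNPH1 213470_s_at read 8.36 and 8.25 at 0 h, 6.94 and 6.85 at 0.5 h, 6.87 and 6.80 at 1 h, 7.41 and 7.19 at 3 h and 7.85 and 7.54 at 6 h. No later array reached the 0 h level. Its change was -1.41 at 0.5 h (SE 0.134, adjusted p = 0.00213), -1.47 at 1 h (adjusted p = 0.000717) and -1.01 at 3 h (adjusted p = 0.00264). The -0.61 of 6 h (adjusted p = 0.0135) was not called with equal array medians (adjusted p = 0.0826), without the first 0 h array (0.0875) or without the second 6 h array (0.061). HNRNPF was called at 6 h and at no other time, lower at 8.27 and 8.12, against 8.93 and 8.94 at 0 h (change -0.74, adjusted p = 0.00519).

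HNRNPK, a KH-domain protein that binds C-rich RNA, and HNRNPU, which attaches chromatin to the nuclear matrix, fell at all 4 times on both of their tested probe sets. HNRNPK 200097_s_at read 10.13 and 9.98 at 0 h, 9.30 and 8.98 at 0.5 h, 8.86 and 8.58 at 1 h, 9.12 and 8.69 at 3 h and 8.94 and 9.24 at 6 h. HNRNPU 200594_x_at read 10.35 and 10.14 at 0 h, 9.55 and 9.24 at 0.5 h, 9.52 and 9.31 at 1 h, 9.14 and 8.67 at 3 h and 9.10 and 9.43 at 6 h. Neither gene's later arrays overlapped those of 0 h. The largest change was at 1 h for HNRNPK (-1.33, SE 0.192, adjusted p = 0.00185) and at 3 h for HNRNPU (-1.34, SE 0.200, adjusted p = 0.0034). At 0.5 h these 2 probe sets lost their calls without the first 0 h array or the second 0.5 h array, and at 6 h without the first 0 h array or the first 6 h array, with adjusted p-values of 0.0634 to 0.158. That of HNRNPU 200594_x_at was also lost at 0.5 h without the second 0 h array (0.0544) and at 1 h without the first 0 h array (0.11) or the second 1 h array (0.104). On the other probe sets, with equal array medians, HNRNPK 200775_s_at was not called at 6 h (adjusted p = 0.113) nor HNRNPU 200593_s_at at 1 h (adjusted p = 0.0603). HNRNPK 200775_s_at also lost its calls at 0.5 h and 6 h, and HNRNPU 200593_s_at those at 0.5 h, 1 h and 6 h, with single arrays left out (adjusted p = 0.0565 to 0.143). HNRNPR fell at 0.5 h, 1 h and 3 h on both probe sets, with changes of -0.69 to -1.50, and at 6 h on neither.

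HNRNPC, which binds U tracts, HNRNPD, an AU-rich element protein that speeds mRNA decay, and HNRNPM changed later and less. Of 4 HNRNPC probe sets 2 fell at 3 h and 4 at 6 h, by 0.43 to 0.63, and of 5 tested HNRNPD probe sets 2 fell at 3 h and 2 at 6 h, by 0.39 to 0.48. None of these HNRNPC and HNRNPD calls held with equal array medians, where their adjusted p-values were 0.0674 to 0.622. HNRNPM 200072_s_at had changes of -0.66 at 3 h (adjusted p = 0.0125) and -0.78 at 6 h (adjusted p = 0.00742), and with equal array medians the first was not called (adjusted p = 0.0619) and the second was (adjusted p = 0.017). Without the first 0 h array adjusted p was 0.0723 at 3 h and 0.0511 at 6 h. HNRNPDL, a relative of HNRNPD, fell on 3 probe sets at 1 h, by 0.63 to 0.91, and on the same 3 at 6 h, by 0.85 to 1.01, with no call at 0.5 h or 3 h, and these 6 calls were lost without the first 0 h array (adjusted p = 0.0705 to 0.167).

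In the SR family SRSF6 had the largest changes, on 2 probe sets that did not move together. SRSF6 208804_s_at read 9.20 and 8.79 at 0 h, 7.46 and 7.04 at 0.5 h, 7.06 and 6.31 at 1 h, 7.42 and 7.27 at 3 h and 6.64 and 7.15 at 6 h. SRSF6 206108_s_at read 8.45 and 8.30 at 0 h, 8.62 and 8.63 at 0.5 h, 8.73 and 8.83 at 1 h, 8.03 and 7.90 at 3 h and 6.81 and 6.69 at 6 h. The first was low on every later array, while the second was above 0 h up to 1 h and clearly below it only at 6 h. On the first the change was -1.74 at 0.5 h (SE 0.283, adjusted p = 0.00743), -2.31 at 1 h (adjusted p = 0.00113), -1.65 at 3 h (adjusted p = 0.00515) and -2.10 at 6 h (adjusted p = 0.00249). On the second it was 0.25 at 0.5 h (adjusted p = 0.162), 0.40 at 1 h (SE 0.106, adjusted p = 0.0232), -0.41 at 3 h (adjusted p = 0.0223) and -1.63 at 6 h (adjusted p = 0.000212). The rise at 1 h was not called without the second 0 h array (adjusted p = 0.112), the first 1 h array (0.0511) or the second 1 h array (0.117). With equal array medians the 3 h change of the second was -0.10 (adjusted p = 0.543), and as deposited it was not called without the first 0 h array (0.132) or the second 3 h array (0.117). The 0.5 h call of the first was lost without the first 0 h array (0.0675) or the second 0.5 h array (0.0638).

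SRSF1, the first SR protein described, fell at 1 h, 3 h and 6 h on its 3 tested probe sets. SRSF1 208863_s_at read 9.33 and 9.17 at 0 h, 9.04 and 9.11 at 0.5 h, 8.74 and 8.55 at 1 h, 8.23 and 8.13 at 3 h and 7.54 and 7.81 at 6 h. The arrays of each time stood below those of the time before, without overlap. The change at 6 h was -1.58 (SE 0.128, adjusted p = 0.000498), and the other probe sets gave -1.16 and -1.35. At 1 h, 3 probe sets fell by 0.48 to 0.63, and none of these 3 calls held with equal array medians (adjusted p = 0.0568 to 0.237).

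TRA2A and TRA2B, the human Transformer 2 proteins, which bind GA-rich enhancers, fell at 1 h, 3 h and 6 h, and TRA2B 200893_at at 0.5 h too. TRA2A 204658_at read 8.19 and 7.96 at 0 h, 7.66 and 7.63 at 0.5 h, 7.56 and 7.25 at 1 h, 6.76 and 6.60 at 3 h and 6.52 and 6.60 at 6 h. TRA2B 200893_at read 9.84 and 9.38 at 0 h, 8.71 and 8.58 at 0.5 h, 8.24 and 8.20 at 1 h, 8.32 and 8.03 at 3 h and 8.43 and 8.62 at 6 h. TRA2A stood lower at each later time, with -1.51 at 6 h (SE 0.136, adjusted p = 0.000651), while TRA2B was near its low at 1 h, with -1.39 (SE 0.169, adjusted p = 0.00113). The TRA2A change of 1 h, -0.67 (adjusted p = 0.00793), was not called without the first 0 h array (0.0645) or the second 1 h array (0.057). The TRA2B change of 0.5 h was -0.96 on 200893_at (adjusted p = 0.00902), a call lost without the first 0 h array (0.0644) or the second 0.5 h array (0.0706). On TRA2B 200892_s_at the 0.5 h change was not called (adjusted p = 0.0931), and the call of 1 h was lost without the first 0 h array (0.137) or the second 1 h array (0.122).

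SRSF3, a small SR protein also used in mRNA export, had its lowest level at 1 h on 2 of 3 probe sets. SRSF3 208673_s_at read 7.24 and 7.44 at 0 h, 6.38 and 6.71 at 0.5 h, 5.81 and 5.47 at 1 h, 7.21 and 6.72 at 3 h and 6.80 and 6.95 at 6 h. Its change at 1 h was -1.70 (SE 0.200, adjusted p = 0.00109), and at 3 h and 6 h it was -0.38 (adjusted p = 0.204) and -0.47 (adjusted p = 0.124). The brighter 208672_s_at had -0.93 at 1 h (adjusted p = 0.00124), -0.29 at 3 h (adjusted p = 0.105) and -0.85 at 6 h (adjusted p = 0.00268). No tested probe set of SRSF3 was called at 3 h.

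SRSF5 had its highest mean at 1 h on both of its tested probe sets, without a call as deposited. SRSF5 212266_s_at read 7.86 and 7.67 at 0 h, 7.82 and 7.47 at 0.5 h, 8.13 and 8.02 at 1 h, 7.02 and 6.38 at 3 h and 7.04 and 7.44 at 6 h. The 1 h arrays lay above 0 h by 0.31 (SE 0.230, adjusted p = 0.368). With equal array medians the change was 0.60 (adjusted p = 0.0161), on a scale where 32.5% of all tested probe sets rose at 1 h. The 3 h arrays lay below 0 h, with a change of -1.06 (adjusted p = 0.0117). The 3 h call was lost without the first 0 h array (adjusted p = 0.0841) or the second 3 h array (0.0634).

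SRSF10, which acts as a repressor when dephosphorylated, fell at all 4 times on both of its tested probe sets, by 1.13 to 2.06. SRSF10 206095_s_at read 6.32 and 6.44 at 0 h, 5.32 and 5.17 at 0.5 h, 4.58 and 4.82 at 1 h, 5.33 and 4.94 at 3 h and 5.12 and 5.27 at 6 h. Its later arrays kept clear of 0 h, and the change at 1 h was -1.68 (SE 0.154, adjusted p = 0.000717; -1.38 with the floor). The other probe set, 213594_x_at, lost its call at 0.5 h and at 6 h without the first 0 h array (adjusted p = 0.0728 and 0.0636), at 0.5 h without the second 0.5 h array (0.0706) and at 6 h without the first 6 h array (0.0568). SRSF11 200686_s_at had -1.22 at 1 h (adjusted p = 0.0344) and -1.35 at 3 h (adjusted p = 0.0242), lower calls that were lost without the first 0 h array (adjusted p = 0.207 and 0.154). SRSF7, which has a zinc knuckle besides its RNA recognition motif, fell at all 4 times on 214141_x_at, by 0.83 to 1.09. The 0.5 h call was lost without the first 0 h array or the second 0.5 h array. The other tested probe sets of SRSF7, 213649_at and 201129_at, were called at no time against 0 h. The mean of 201129_at was 5.78 at 0 h and 5.88 at 6 h. SRSF8 213152_s_at passed the filter only through the 0 h arrays, so its lower calls against 0 h add nothing. The brighter SRSF8 214789_x_at lay over the filter level on all arrays. It read 6.94 and 6.92 at 0 h, 6.34 and 6.33 at 3 h and 5.59 and 5.93 at 6 h. Its change was -0.60 at 3 h and -1.17 at 6 h.

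Of the SR-related genes, SON 201086_x_at read 6.00 and 5.71 at 0 h, 3.59 and 3.56 at 0.5 h, 3.55 and 3.50 at 1 h, 3.81 and 3.58 at 3 h and 3.54 and 4.71 at 6 h. SON 214988_s_at read 6.28 and 5.78 at 0 h and 3.24 to 4.43 on the 8 later arrays. Only the 0 h arrays reached the filter level, so these probe sets were tested because they differ, and their changes, such as -2.32 at 1 h for 201086_x_at (adjusted p = 0.00158) and -0.85 with the floor, describe the arrays and support nothing further. The other 2 probe sets of SON stayed between 2.55 and 3.05 on all arrays.

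SRRM1, a coactivator that bridges enhancer complexes and the spliceosome, fell late. SRRM1 201225_s_at read 9.40 and 9.18 at 0 h, 8.83 and 8.61 at 0.5 h, 8.52 and 8.44 at 1 h, 7.76 and 7.20 at 3 h and 7.37 and 8.02 at 6 h. All later arrays lay below 0 h, those of 3 h and 6 h the furthest. The change was -0.57 at 0.5 h (SE 0.242, adjusted p = 0.162), -1.81 at 3 h (adjusted p = 0.00268) and -1.59 at 6 h (adjusted p = 0.00366). At 1 h it was -0.81 (adjusted p = 0.0399), a call lost when any of the 0 h, 0.5 h or 1 h arrays was left out (adjusted p = 0.0584 to 0.197).

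The time of the lowest mean varied among the 67 tested probe sets. It was 0 h in 1, 0.5 h in 1, 1 h in 20, 3 h in 17 and 6 h in 28, uncalled probe sets included. Over all tested probe sets it was 0 h in 21.2%, 0.5 h in 5.71%, 1 h in 20.04%, 3 h in 21.0% and 6 h in 32.1%. To separate the courses, 6 h was tested against 1 h, a contrast without the 0 h arrays. In the HNRNP family 8 of 39 were higher at 6 h than at 1 h (HNRNPA1, HNRNPA2B1, HNRNPA3, HNRNPH1 on 2 probe sets, HNRNPH3, HNRNPK and HNRNPR) and 4 lower (HNRNPA0, HNRNPAB, HNRNPF and HNRNPM). In the SR family 1 of 22 was higher (SRSF3) and 9 lower (SRSF1 on 3, SRSF5 on 2, SRSF8 on 2, SRSF6 and TRA2A, 1 of the SRSF8 probe sets being under the filter level at both times), and of the SR-related probe sets SRRM1 201225_s_at was lower. Over all tested probe sets 12.2% were higher and 11.7% lower, so the members as a whole, with 9 higher and 14 lower of 67, stood near the background for higher calls. With equal array medians 10 HNRNP probe sets were higher and 6 lower, and 3 SR probe sets higher and 9 lower, against a background of 14.3% higher and 16.1% lower.

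The largest such differences were in SRSF6 206108_s_at, with 6.81 and 6.69 at 6 h against 8.73 and 8.83 at 1 h (difference -2.03, SE 0.106, adjusted p = 2.78e-05), and in HNRNPH3 208990_s_at, with 5.69 and 6.35 at 6 h against 4.81 and 4.44 at 1 h (difference 1.40, SE 0.349, adjusted p = 0.0236). The HNRNPH3 call was lost without the first 1 h array (adjusted p = 0.0669), the second 1 h array (0.118) or the second 6 h array (0.136). Fewer members than with all arrays were called higher without either 1 h array or without the second 6 h array. Fewer were called lower without the first 1 h array. In each of these runs the same held for all tested probe sets. The difference between the families was not tested.

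**Figure D3:**
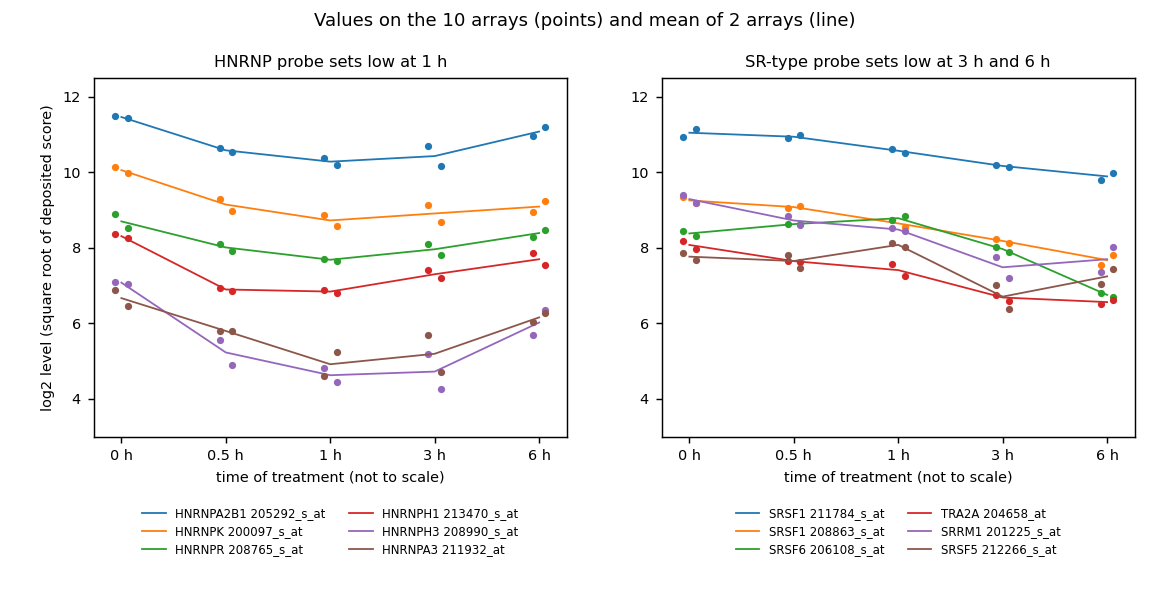
Log2 level on each of the 10 arrays (points) with the mean of 2 arrays (line) against time for 6 HNRNP probe sets and 6 SR or SRRM1 probe sets, chosen after their values were seen to show both courses. The HNRNP lines reach their low by 1 h to 3 h and lie higher at 6 h, while those of SRSF1, TRA2A and SRSF6 206108_s_at are lowest at 6 h.

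**Figure D4:**
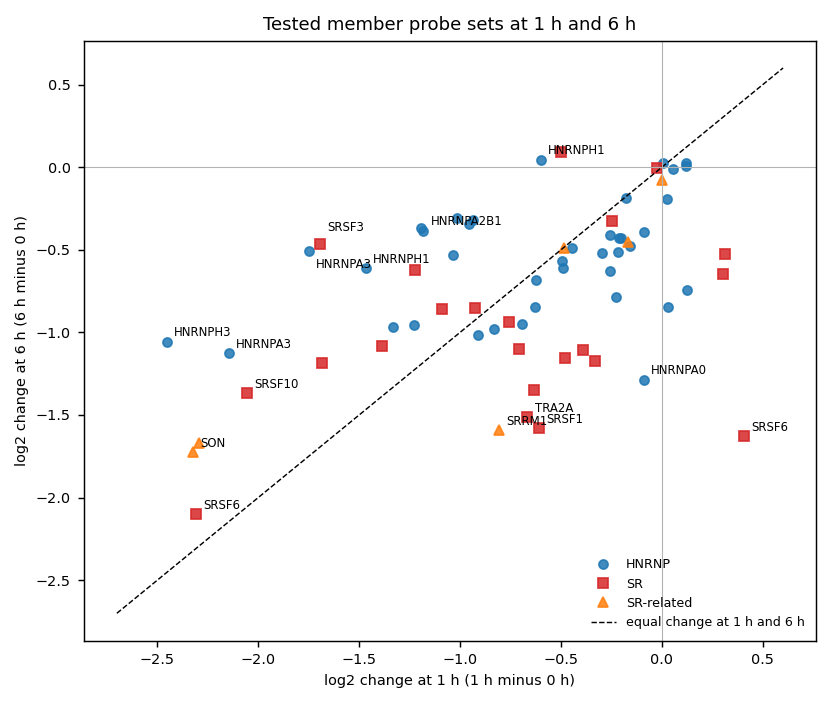
Log2 change from 0 h at 1 h (x) and at 6 h (y) for the 67 tested member probe sets, by family, with the line of equal change. Both axes use the same 0 h arrays, so the cloud's slope is no result; distance from the line is the change between 1 h and 6 h, with HNRNPH3 and SRSF3 208673_s_at above it and SRSF6 206108_s_at, HNRNPA0, SRSF1 and TRA2A below.

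Probe sets of 1 gene were compared directly. Each of 36 further probe sets of 23 genes was set against the one with the highest mean over all arrays, here called the brightest of its gene, and the difference of their changes was tested among 865 such pairs on the array. Differences were called in 3 pairs at 0.5 h (background 2.89%), 7 at 1 h (background 9.71%), 6 at 3 h (background 8.67%) and 2 at 6 h (background 5.2%). At 6 h against 1 h, 4 pairs were called (background 3.93%), in HNRNPA0, SRSF3, SRSF6 and TRA2B. The call of SRSF3 was lost without the second 1 h array or either 6 h array (adjusted p = 0.052 to 0.102), and that of TRA2B without any 1 h or 6 h array (adjusted p = 0.0585 to 0.147). In all, 9 pairs of 9 genes were called at 1 or more times against 0 h. Without the first 0 h array the counts were 0, 1, 0 and 0 at the 4 times, without the second 3 h array 0 at 3 h, without the second 1 h array 2 at 1 h and without either 0.5 h array 1 at 0.5 h. Without the second 0 h array they were 4 at 1 h and 2 at 3 h, without the first 1 h array 3 at 1 h, and without the first 6 h array 1 at 6 h. An equal shift of all probe sets on an array leaves these differences as they are. Where the probes lie along the transcripts was not analysed here.

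SRSF6 had the largest difference. The change of 208804_s_at minus that of 206108_s_at was -1.99 at 0.5 h (SE 0.293, adjusted p = 0.0103), -2.71 at 1 h (adjusted p = 0.00188), -1.24 at 3 h (adjusted p = 0.0306) and -0.47 at 6 h (adjusted p = 0.417). At 1 h it was called with every array left out in turn. At 0.5 h it was lost without the first 0 h array (adjusted p = 0.0776) or the second 0.5 h array (0.0947), and at 3 h without any of the 0 h or 3 h arrays (0.0862 to 0.166).

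In HNRNPA0 the dim 201055_s_at read 6.11 and 6.29 at 0 h, 6.20 and 5.97 at 0.5 h, 6.30 and 6.11 at 1 h, 6.31 and 6.43 at 3 h and 6.28 and 6.17 at 6 h, flat beside the fall of 201054_at. The difference of changes was 1.16 at 3 h (SE 0.161, adjusted p = 0.0121) and 1.31 at 6 h (adjusted p = 0.0087), and at 0.5 h and 1 h it was -0.27 (adjusted p = 0.462) and 0.09 (adjusted p = 0.807). Without the first 0 h array adjusted p was 0.0949 at 3 h and 0.0794 at 6 h, and at 3 h it was 0.101 without the second 3 h array. In SRRM1, too, the dimmer 201224_s_at fell less, with -0.58 at 3 h (adjusted p = 0.0372, and 0.163 with equal array medians): the difference was 1.23 at 3 h (SE 0.187, adjusted p = 0.0121) and 1.14 at 6 h (adjusted p = 0.012). These calls were lost without the first 0 h array (adjusted p = 0.0956 and 0.106), at 3 h without the second 3 h array (0.101) and at 6 h without the first 6 h array (0.0578).

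In HNRNPH3 and HNRNPH1 a dimmer probe set fell more than the brightest. For HNRNPH3 208990_s_at against 210588_x_at the difference was -1.96 at 1 h (SE 0.378, adjusted p = 0.0134), -1.63 at 3 h (adjusted p = 0.0293) and -0.44 at 6 h (adjusted p = 0.612). With values floored at log2 5 it was -1.59 at 1 h and -1.26 at 3 h. For HNRNPH1 213470_s_at against 213619_at it was -1.10 at 0.5 h (SE 0.167, adjusted p = 0.0103), -0.87 at 1 h (adjusted p = 0.0134) and -0.68 at 3 h (adjusted p = 0.0336), and -0.66 at 6 h (adjusted p = 0.0526). In HNRNPA3 the difference of 211930_at from 211932_at was called at 1 h (1.57, SE 0.303, adjusted p = 0.0134) and 3 h (1.34, adjusted p = 0.0272). However, 211930_at averaged 4.84, under the filter level, and stayed between 4.74 and 5.11 on all arrays. With values floored at log2 5 the HNRNPA3 difference was 1.54 at 1 h and 1.31 at 3 h. Each of these calls was lost without the first 0 h array (adjusted p = 0.0707 to 0.173) and without at least 1 array of its later time (adjusted p = 0.0537 to 0.173). Without the second 0 h array adjusted p was 0.0742 for HNRNPH3 and 0.0764 for HNRNPA3 at 3 h, and 0.0698 and 0.137 for HNRNPH1 at 1 h and 3 h.

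In SRSF7 213649_at read 6.85 on the first 0.5 h array and 5.88 to 6.27 on the other 9, and was not called lower at 0.5 h or 1 h, when 214141_x_at was. The differences were 1.27 at 0.5 h (SE 0.218, adjusted p = 0.0121) and 1.06 at 1 h (adjusted p = 0.016). In SRSF3 208673_s_at fell by more than 208672_s_at at 1 h (difference -0.77, SE 0.195, adjusted p = 0.0369), and in TRA2B 200892_s_at fell by less than 200893_at at 1 h (difference 0.68, SE 0.146, adjusted p = 0.0188), the last pair named after its values were seen. The SRSF7 calls were lost without the first 0 h array (adjusted p = 0.117 and 0.124), at 0.5 h without the first 0.5 h array (0.0694) and at 1 h without either 1 h array (0.0826 and 0.0684), and those of SRSF3 and TRA2B without any 0 h or 1 h array (0.0558 to 0.249).

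**Figure D5:**
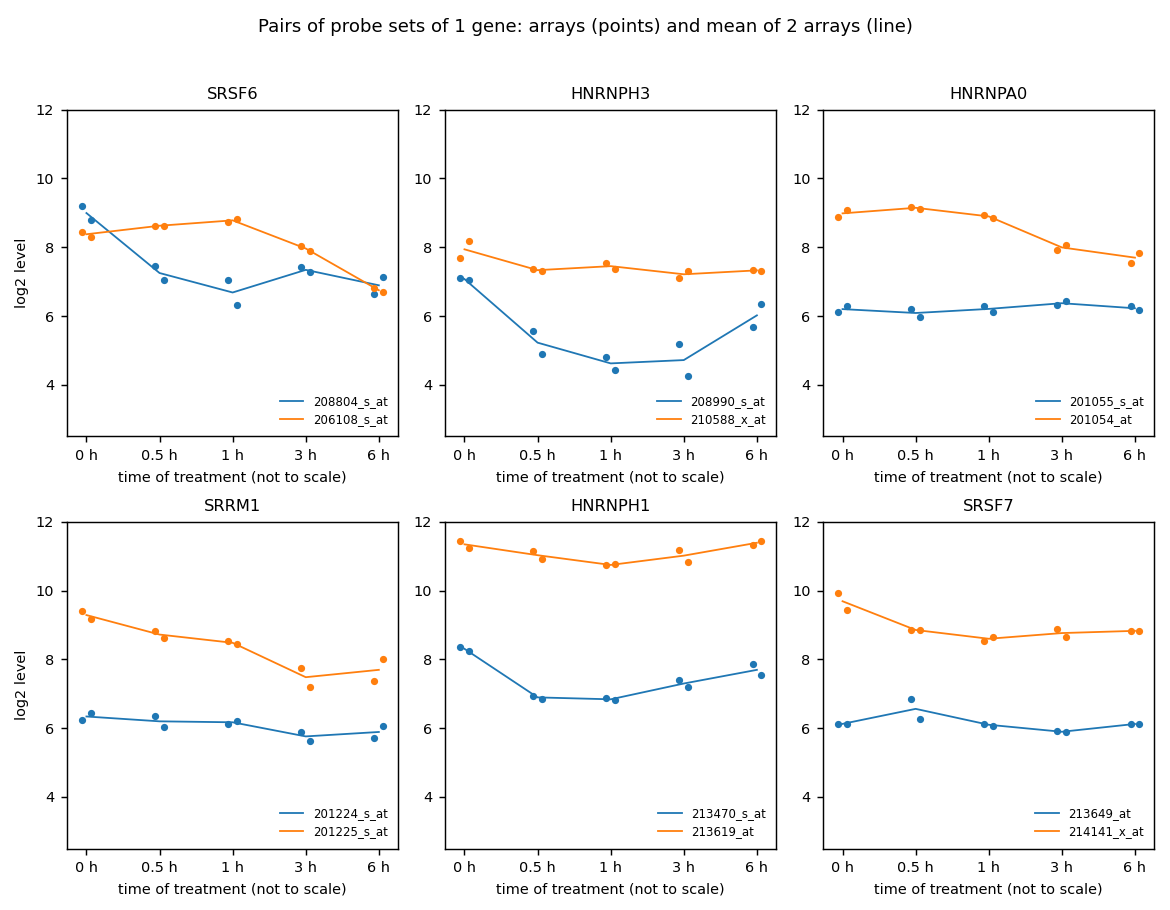
Log2 level on each array (points) and mean of 2 arrays (line) against time for 6 pairs of probe sets of 1 gene. In SRSF6 208804_s_at is down by 0.5 h and 206108_s_at only at 6 h; in HNRNPH3 and HNRNPH1 the lower line dips, and in HNRNPA0, SRRM1 and SRSF7 it is the flatter one. Levels of different probe sets share no scale, so only the changes along a line can be compared.

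The 11 probe sets that name a member beside another gene were all tested, and the signals of the genes they name cannot be told apart. At 0.5 h, 1 h, 3 h and 6 h, 3, 5, 3 and 3 of them fell, against 15.1%, 24.2%, 26.4% and 21.6% of all tested probe sets. None rose, where 1.92% to 4.14% of all tested did. With 11 probe sets these counts are not read as a result about the members. The 3 probe sets that name SRSF2 and a microRNA gene were called at no time up to 3 h and fell at 6 h by 0.55 to 1.18. The 1 that names HNRNPH2 and a readthrough gene had -1.20 at 0.5 h (adjusted p = 0.00902), -1.42 at 1 h (adjusted p = 0.002), -1.10 at 3 h (adjusted p = 0.00756) and -0.63 at 6 h (adjusted p = 0.0586), and the first 3 were called. The 2 that name HNRNPA1 with pseudogenes fell by 0.80 to 0.98 at 0.5 h and 1 h and had -0.04 and -0.02 at 6 h. The 2 that name SRSF9 were called at none of the 4 times.

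Among genes that act on or beside the members, a list of 63 splicing factors, SR protein kinases, transportins and further RNA-binding proteins had 76 tested probe sets of 52 genes. Of these, 16, 21, 25 and 25 fell at the 4 times (21.1%, 27.6%, 32.9% and 32.9%, against 15.1%, 24.2%, 26.4% and 21.6% of all tested) and 1, 2, 1 and 2 rose, with median changes of -0.07, -0.03, -0.27 and -0.18. With equal array medians 15, 16, 14 and 16 fell and 3, 16, 16 and 5 rose, so that the list's balance at 1 h and 3 h depends on the scale. The lowest was SYNCRIP 217832_at, a gene close to HNRNPR, with 5.58 at 1 h against 7.65 at 0 h (means, change -2.07, SE 0.255, adjusted p = 0.00113). SF3B1, a core subunit of the U2 particle, fell by 1.80 at 1 h on 201071_x_at (adjusted p = 0.00209). It stood at 6.02 at 6 h against 4.32 at 1 h (adjusted p = 0.00357). That 1 h mean was under the filter level of log2 5, so part of the fall and of the later difference lies below it. LSM4, of the ring that binds U6 RNA, rose at all 4 times on 212924_s_at, by 1.03 to 1.44 (adjusted p = 0.00305 to 0.0142). Its mean at 0 h, 4.62, was under the filter level of log2 5, and its later means were 5.64 to 6.05. Part of the rise thus lies below that level.

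Of the SR protein kinases, SRPK2 203182_s_at fell at all 4 times, with changes of -1.31 to -1.78, but its mean reached the filter level at 0 h and at no later time, so it had to differ, and the other probe set of SRPK2 was not called at any. CLK3 averaged 6.05, 6.19, 6.06 and 6.37 at 0 h, 0.5 h, 1 h and 3 h, and rose by 0.76 at 6 h (SE 0.173, adjusted p = 0.015). TNPO3, the transportin of SR proteins, fell at all 4 times, to a mean of 6.20 at 3 h against 7.40 at 0 h (change -1.20, SE 0.163, adjusted p = 0.0027). TNPO1, which imports HNRNPA1 and related proteins, had called changes of -0.79 at 0.5 h (adjusted p = 0.0462) and -1.15 at 1 h (adjusted p = 0.00632). It stood at 6.03 at 6 h against 4.65 at 1 h (adjusted p = 0.00389). The 1 h mean of TNPO1 was under the filter level, so part of the 1 h fall and of the later difference lies below it.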

How the data were processed

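The authors deposited 1 score for each probe set on each array, and per the submitters' processing notes GCRMA was used. GCRMA takes off a background modelled on probe sequence, equalizes the arrays and sums up a set's probes. Its version, the scale and any later step are not given in the sources used here. The deposited scores ran from 1.25e-05 to 238.1, and their square roots, up to 15.43, were taken for log2 levels, a scale that no source states.

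Members were found through the platform annotation, with symbols updated by gene identifier to RefSeq GRCh38.p14. A probe set that names several genes was not given to any. A probe set was tested if it reached log2 5 (score 25) on 2 or more of the 10 arrays, whatever their group, which left 4276. The model was fitted to the 10 arrays by limma 3.58.1 under R 4.3.3, through lmFit and eBayes, with 1 coefficient for each time. Benjamini-Hochberg adjustment ran over all tested probe sets of a contrast, and a call is an adjusted p under 0.05. Errors are SEs of the fit, with n = 2 arrays per time. Each further probe set of a gene was tested against the brightest in a second limma fit over 865 pairs of 632 genes. The procedure was tested on simulated data.

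Named genes are, per time, the 5 called member probe sets with the lowest and the 5 with the highest change, and the 8 pairs with the largest called difference. The members, lists and rules were chosen with earlier results of these data known. Alternatives were equal array medians, renewed quantile normalization, other filters, other scales, a floor at log2 5, the 18S and spike-in levels as covariates, a replicate block, and each array left out. The number of arrays limits the precision.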

Additional observations from a re-analysis of the deposited data

How the results depend on the processing

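Of the 21 called changes of named genes 8 were those of SON, which had to differ and say nothing of stability. Of the other 13 none reversed under any alternative run. With equal array medians, with renewed quantile normalization, untransformed and with the floor, 13 were also called. The number was 12 on log2 of the scores, 8 with no filter, 4 with the spike-in covariate and 0 with the 18S covariate. Some of these calls were lost with 1 array left out. Leaving out an array of a time that a change does not compare keeps its estimate, so many of these runs say little of stability. With no filter all 88 member probe sets were tested. Lower members then numbered 6, 21, 24 and 22 at 0.5 h, 1 h, 3 h and 6 h (background 1.17%, 3.42%, 2.66% and 2.4%). With the spike-in covariate they numbered 9, 24, 0 and 0 (background 5.24% at 0.5 h and 16.6% at 1 h). With the 18S covariate they numbered 0, 4, 0 and 0 (background 0.187% at 0.5 h and 3.25% at 1 h). Higher members numbered 2, 6 and 1 at 0.5 h, 1 h and 3 h with equal medians (background 6.9%, 32.5% and 23.1%). With quantile normalization they numbered 3, 4 and 1 (background 7.44%, 23.4% and 18.2%). They numbered 1 at 0.5 h untransformed (background 2.39%), and 0 at 1 h with either covariate. At 6 h against 1 h, 7 were lower and 2 higher with no filter, and 7 and 3 with the spike-in covariate. The F test called 18 with no filter (background 3.75%), 25 with the spike-in (17.4%) and 26 with the 18S covariate (18.5%). With 1 array left out, lower members ranged from 4 to 26 at 0.5 h, 18 to 38 at 1 h, 24 to 42 at 3 h and 19 to 44 at 6 h, higher members from 0 to 1 at 0.5 h and 0 to 1 at 1 h, and at 6 h against 1 h from 8 to 14 lower and 2 to 11 higher. Called pairs then ranged from 0 to 3, 1 to 7, 0 to 6 and 0 to 3 at the 4 times. Pairs called at 0.5 h were 1 with no filter. At 3 h they were 3 with the filter at log2 7 and 3 on log2 of the scores. At 6 h they were 6 with no filter, 1 with the filter at log2 7, 1 on log2 of the scores and 5 with the floor. Among the 5 pairs with no probe set of the _s_at or _x_at kind, which can read several transcripts, 0, 1, 2 and 0 were called. The cause of these shifts was not tested. With the replicate number as a block 25, 37, 42 and 40 members fell and 3, 7, 6 and 2 pairs were called. No label says whether the numbers pair the samples. Same-numbered arrays deviated together with r = -0.231 to 0.147, over 0.1 in 2 of 10 pairs of times. Such values do not tell unpaired samples from paired ones with small shared effects, so the pairing is not known. Dim probe sets, 21 of 88, could not be tested, and with 2 arrays a time many calls at 0.5 h rest on 1 array. Array leave-outs were not run for genes that are no members.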
